A study of Mus musculus with 4 samples.

Results

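The calcium/calmodulin-dependent kinases (CaM kinases) and the endogenous inhibitors of CaMKII were followed through an RNA immunoprecipitation (RIP) with an antibody against CPEB2. The set was 10 named genes: Camk2a, Camk2b, Camk2d and Camk2g, which encode the CaMKII subunits, Camk2n1 and Camk2n2, which encode the CaMKII inhibitors, and the kinases Camk4, Camk1, Camkk1 and Camkk2. They were chosen by name, as every non-control spot carrying one of these symbols on all arrays. This gave 27 of the 59305 non-control spots on each array, 18 of 55681 distinct probes and 10 of 24164 genes with a symbol. All 10 symbols were current in RefSeq.

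Cortical and hippocampal lysate from male C57BL/6 mice, 8 weeks old and carrying no stated mutation, was divided and incubated for 3 hours with beads bearing either CPEB2 IgG or control IgG. The RNA left on the beads was hybridised to Agilent mouse expression arrays in one colour. There were 2 CPEB2 IgG arrays and 2 control IgG arrays, numbered as experiment 1 and experiment 2, and the sources used here do not say how many animals went into a lysate. The titles and the protocol of the antibody samples name CPEB2, whereas their description field names CPEB3. The tissue is a mixture of neurons and glia, and no input RNA was analysed here, so a value below is the RNA recovered with one antibody relative to the other and not the abundance of an mRNA in the brain.

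CaM kinases are switched on when calcium-loaded calmodulin binds them. The CaMKII subunits assemble into a large holoenzyme that, once activated, phosphorylates itself and stays active after calcium has fallen, a property long studied in synaptic plasticity. CAMK2N1 and CAMK2N2 are small proteins that bind the active holoenzyme and block it. CaMKI and CaMKIV act in a cascade below the CaM kinase kinases CAMKK1 and CAMKK2, and CaMKIV is found largely in the nucleus, where it phosphorylates CREB. The Camk2a mRNA is a well known dendritic mRNA whose translation is controlled through the cytoplasmic polyadenylation element (CPE), the sequence that CPEB proteins bind in the untranslated region behind the coding sequence.

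Each array probe is a DNA oligonucleotide of 60 bases. The last 30 bases of the probes on which the results turn are shown first, read 5′ to 3′ in the sense of the mRNA, with G and C in capitals because base composition moved with the measurements over the whole array. Positions are those of the array design on mouse build mm9. The files do not say whether a position is coding or untranslated, and this was not annotated here. The following probes belong to the inhibitors and the CaMKII subunit gene that were higher with CPEB2 IgG.
Camk2n1, chr4:138013398-138013427, plus strand: aaGtaaCttttCtaCGGaCtGatGCtttGG
Camk2n2, chr16:20619341-20619370, minus strand: GGGttGtCCtttGtaaaaatGtttCtCCat
Camk2g, chr14:21554122-21554151, minus strand: aGCtttGttaCaatGaaaCCttGaaGatat

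The next set comes from genes that were lower or that gave different values at different probes. For Camk2b, Camk2d and Camkk2 the probe nearest the 5′ end of the gene and the one nearest the 3′ end are given.
Camkk1, chr11:72855487-72855516, plus strand: CaaaCtCCataaGaGtGtttataaaaCtta
Camk2b, 5′ probe, chr11:5872636-5872665, minus strand: atGGatttCCaCaGattCtaCtttGaGaaC
Camk2b, 3′ probe, chr11:5869675-5869704, minus strand: ttCttattttGttCtGtCtCGGGaaaCtGC
Camk2d, 5′ probe, chr3:126543253-126543282, plus strand: aCCGttCGGGGtCCCCCaCaGtaCCCatCa
Camk2d, 3′ probe, chr3:126547715-126547744, plus strand: ttCtattGtttGGaaaaCaCtGCaGtttaC
Camkk2, 5′ probe, chr5:123187482-123187511, minus strand: CattCGGGaaCCCGttCGaaGGtaGCCGCC
Camkk2, 3′ probe, chr5:123183273-123183302, minus strand: GtCtGtCtGGaGGCtGaaCaCaCttCatGt

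On each array 68.4% to 74.1% of the non-control spots were well above background and none was saturated. After filtering for probes well above background on at least 2 of the 4 arrays, 41137 probes were tested, and 19698 genes by their brightest probe. Of the 18 probes in the set, 17 passed, and all 17 were well above background on all 4 arrays. The exception was a Camk2d probe designed on a separate cDNA, with raw signals of 60.6 and 10.9 on the CPEB2 IgG arrays and 11.6 and 4 on the control arrays, and it was not tested. All 10 genes were detected on both control arrays as well as on both CPEB2 IgG arrays. With 2 arrays in each group, the smallest two-sided p of an exact permutation test for a single gene is 0.333, so the tests are those of limma, which borrows the spread of all features and adjusts p by Benjamini-Hochberg over all features tested.

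The question was which of these mRNAs were recovered more with CPEB2 IgG than with control IgG. Both inhibitor genes and the gamma subunit gene were higher, the beta subunit, Camkk1 and Camk1 were lower, and Camk2a, Camk2d, Camk4 and Camkk2 were not called at their brightest probes. Thus 3 of the 10 genes were higher, against 21.2% of all genes tested, and 3 were lower, against 20.4%. By probe, 3 of 17 were higher, against 12.7% of all probes, and 5 were lower, against 14.8%. The gene counts are near the shares of all genes and do not set the family apart. Lower probes were a larger share than over all probes, with both Camk2b probes among them. Whether this sets the family apart was not tested. The median log2 fold change was 0.12 over the 10 genes and -0.11 over all genes, and -0.42 over the 17 probes and -0.20 over all probes. Without either control array 1 probe was higher and 2 lower, and 2 genes were higher and 1 lower, and without the second CPEB2 IgG array 1 probe was higher and 4 lower. When dim probes were left in, no probe on the array was called of 55615 tested. In the set, which then included the dim Camk2d probe, 4 probes were higher and 8 lower at an unadjusted limma p under 0.05. The share of all probes at that unadjusted threshold was not computed, so these counts cannot be set against the array.

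**Figure D1:**
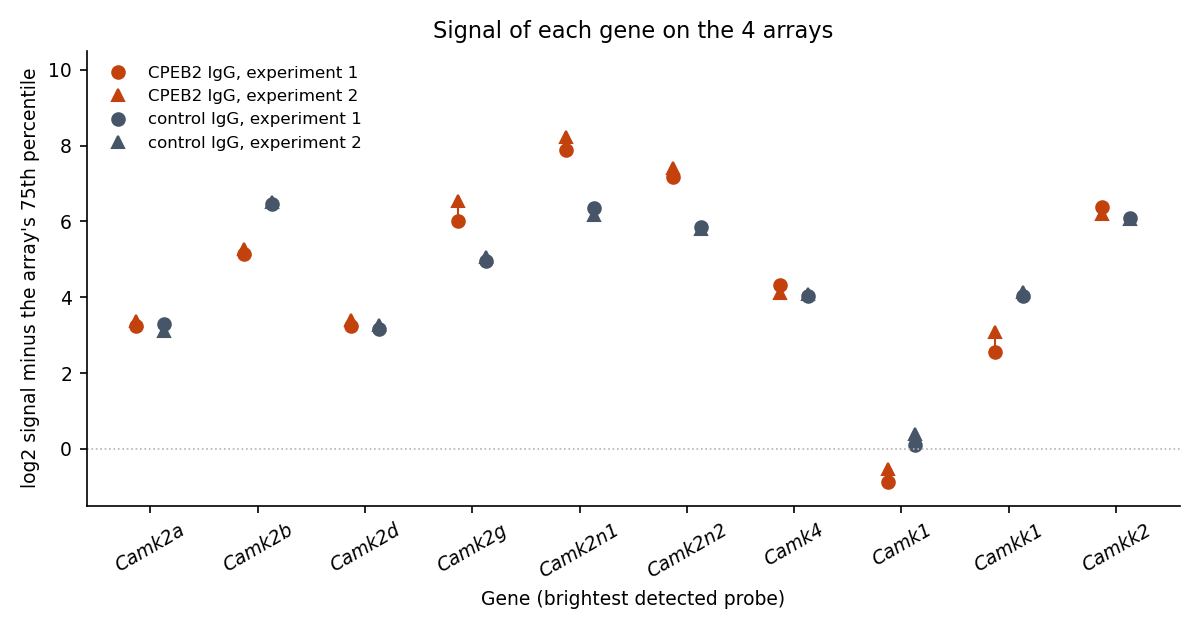
Signal of the brightest probe of each of the 10 genes on the 4 arrays, as log2 of the processed signal minus the 75th percentile of its own array (vertical axis), with circles for experiment 1, triangles for experiment 2, orange for CPEB2 IgG and grey for control IgG. The CPEB2 IgG points lie above the control points for Camk2g, Camk2n1 and Camk2n2 and below them for Camk2b, Camk1 and Camkk1. Heights are to be compared within a gene, not between genes, because probes differ in brightness.

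Among the inhibitors, the Camk2n1 probe gave raw signals of 98542 and 125286 on the CPEB2 IgG arrays of experiments 1 and 2 and of 36073 and 30860 on the control arrays. Both antibody arrays were far above both controls. The log2 fold change was 1.53 in experiment 1 and 2.04 in experiment 2, with a mean of 1.79 (SD 0.36, n = 2 experiments), a 3.46-fold difference with a limma adjusted p of 0.00848 among genes. This value lay at the 91.5th percentile of all genes tested, so many other mRNAs had a larger difference.

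Camk2n2, encoding the second inhibitor, read 59666 and 70828 on the CPEB2 IgG arrays, against 25749 and 23757 on the controls. Again the groups did not overlap. The mean log2 fold change was 1.45 (SD 0.21, n = 2 experiments), with 1.30 and 1.60 in the individual experiments, or 2.73-fold (limma adjusted p = 0.0115). The 95% intervals of limma at the gene level ran from 1.11 to 2.47 for Camk2n1 and from 0.82 to 2.08 for Camk2n2, and each contained the other gene's mean. Among probes, Camk2n2 was no longer called without the second CPEB2 IgG array (0.0509) or without either control array (0.0632 and 0.0675).

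Among the CaMKII subunits, Camk2g, encoding the gamma subunit, was the one that was higher with CPEB2 IgG. Its probe read 26925 and 38924 on the CPEB2 IgG arrays, against 13813 and 14132 on the controls. Both antibody arrays were above both controls, and experiment 2 had the larger difference, 1.49 against 1.05 on the log2 scale. The mean of 1.27 (SD 0.31, n = 2 experiments), or 2.40-fold, had a limma adjusted p of 0.0182. The call was lost when either control array was left out, with adjusted p-values of 0.0662 and 0.0516.

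Camk2b, encoding the beta subunit, which anchors the holoenzyme to actin, went the other way at both of its probes. The 3′ probe, which was the brighter, read 14610 and 16264 on the CPEB2 IgG arrays, against 39381 and 38660 on the controls. The 5′ probe read 642 and 558 against 3095 and 3530. At each probe both antibody arrays were below both controls. On the log2 scale the difference came to -1.29 (SD 0.09, n = 2 experiments) at the 3′ probe and -2.41 (SD 0.32) at the 5′ probe, with limma adjusted p-values among probes of 0.0251 and 0.00747. The 3′ probe was no longer called among probes without either control array (0.085 and 0.0865), while at the gene level Camk2b was called in each of these fits. Camk2b was the only one of the 5 genes with several tested probes that was lower at its brightest probe.

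Camk2a, encoding the alpha subunit of forebrain neurons, depended on the probe. Its 3′ probe read 3918 and 4279 on the CPEB2 IgG arrays, against 4290 and 3665 on the controls, and the groups overlapped. The log2 fold change there was 0.10 (SD 0.21, n = 2 experiments), with a limma 95% interval from -0.53 to 0.73 at the gene level, which leaves room for a modest difference in either direction. Its 5′ probe read 2935 and 2126 against 5542 and 4891, so that both antibody arrays were below both controls. The log2 fold change was -1.01 (SD 0.24), short of the threshold with a limma adjusted p of 0.0528 among probes. It was called without the replicate block (0.048), under quantile normalization (0.0325), without scaling (0.0407), with an intensity trend (0.000426) and after normexp background correction (0.00493). The 5′ probe stayed uncalled with median centring and when dim probes were left in. After centring within bins of GC content it was at -0.51 and likewise not called.

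Camk2d, encoding the delta subunit, showed the same order along the gene. The 3′ probe read 3918 and 4452 on the CPEB2 IgG arrays, against 3990 and 4086 on the controls. These groups overlapped, with a log2 fold change of 0.10 (SD 0.06, n = 2 experiments, limma adjusted p = 0.753 among genes). The middle tested probe read 800 and 764 against 1074 and 1092, a log2 fold change of -0.42 (SD 0.11) that was not called. The 5′ probe, at 411 and 312 against 964 and 944, was lower with a log2 fold change of -1.36 (SD 0.30, limma adjusted p = 0.0245 among probes). Leaving out one array at a time gave -1.56 to -1.16 at this 5′ probe, and some of these fits did not call it. No single probe of Camk2a or Camk2d was called higher.

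Of the other kinases, Camkk1, an upstream activator of CaMKI and CaMKIV, read 2468 and 3565 on the CPEB2 IgG arrays, against 7168 and 7546 on the controls. Both antibody arrays were below both controls. The mean log2 difference came to -1.26 (SD 0.28, n = 2 experiments, limma adjusted p = 0.0178 among genes), and it was no longer called without either control array (0.0513 and 0.0689).

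Camk1, encoding the alpha form of CaMKI, was spotted 10 times on each array and gave the tightest pair of experiments. The mean raw signals were 230 and 293 on the CPEB2 IgG arrays, against 471 and 562 on the controls, and within an array the log2 signal of the repeated spots had an SD of 0.07 to 0.09. The log2 fold change was -0.95 and -0.92 in the individual experiments. The mean of -0.93 (SD 0.02, n = 2 experiments) was below the limma threshold among genes (adjusted p = 0.0317) and above it among probes (0.0586). Median centring of the arrays (0.0921 among genes), centring by base composition (0.0675) and leaving out any one array also ended the call.

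Camk4, encoding CaMKIV, spanned the widest range in the set. The 3′ probe read 8325 and 7224 on the CPEB2 IgG arrays, against 7284 and 7247 on the controls. The raw signals overlapped, while after scaling both antibody arrays, at 4.31 and 4.11, lay above the controls, at 4.04 and 4.09, by little in experiment 2. The log2 fold change of 0.15 (SD 0.18, n = 2 experiments) was not called (limma adjusted p = 0.654 among genes). The middle probe read 571 and 762 against 873 and 961, a log2 fold change of -0.42 (SD 0.15) that was not called. The 5′ probe read 207 and 151 against 928 and 1088, the lowest value of all 17 probes at -2.46 (SD 0.53, limma adjusted p = 0.0081 among probes).

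Camkk2, the other upstream kinase, gave 34847 and 30480 on the CPEB2 IgG arrays, against 30134 and 28122 on the controls at its 3′ probe. The antibody arrays were above the controls by a log2 fold change of 0.22 (SD 0.11, n = 2 experiments), which was not called (limma adjusted p = 0.498 among genes). Its 5′ probe read 1038 and 1086 against 1897 and 1838, in the opposite direction, with a log2 fold change of -0.76 (SD 0.04, adjusted p = 0.0985 among probes).

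**Figure D2:**
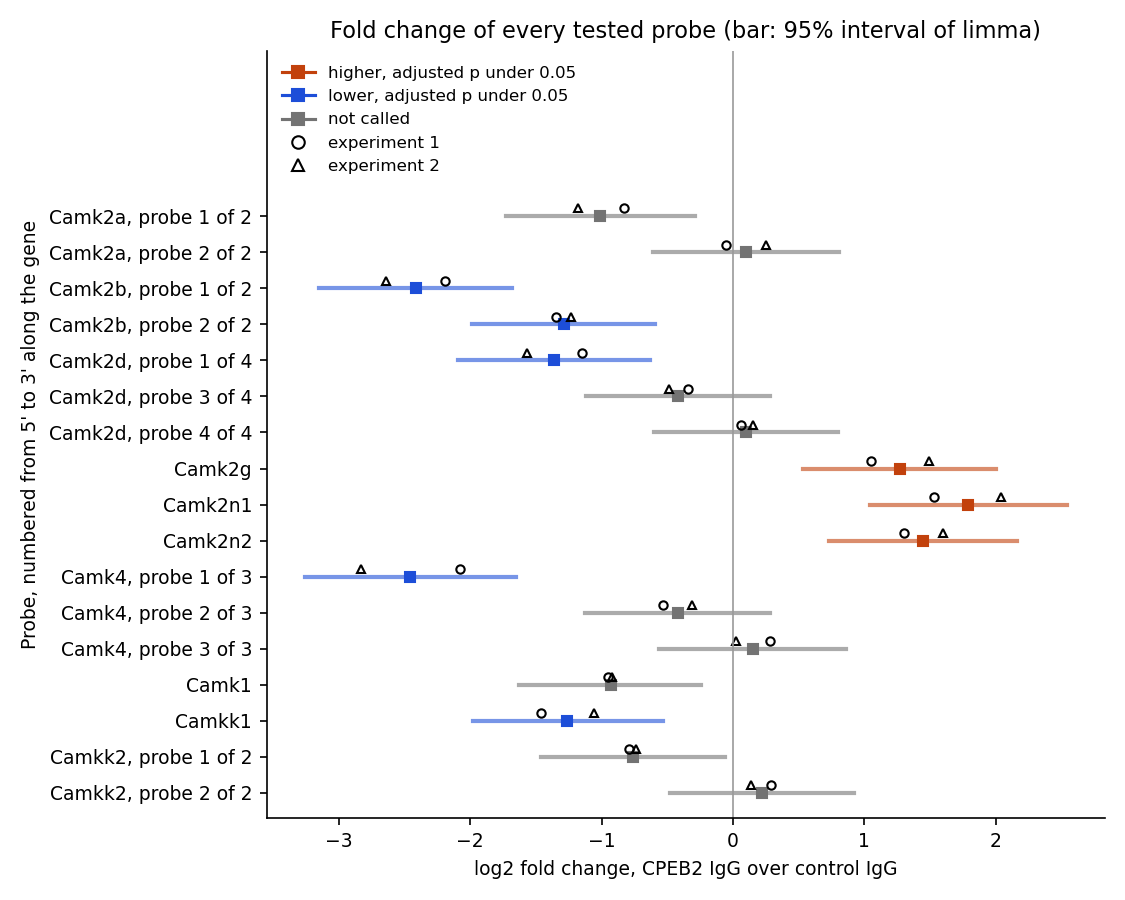
Log2 fold change of CPEB2 IgG over control IgG (horizontal axis) for each of the 17 tested probes, numbered from 5′ to 3′ along each gene, with squares for the mean, bars for the 95% interval of limma among probes, and open circles and triangles for experiments 1 and 2. Values run from -2.46 at the first Camk4 probe to 1.79 at Camk2n1. At 16 of 17 probes the sign was the same in both experiments, a count without a computed share over all probes.

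Across all 17 probes, 5 had both CPEB2 IgG arrays above both controls, against 26.4% of all probes tested, and 10 had both below, against 39.2%. The sign was the same in both experiments at 16 of 17 probes, the exception being the 3′ probe of Camk2a. The share of all probes with the same sign was not computed, so this count does not set the family apart. The methods of the study counted a transcript as enriched when its fold was above 1.5 and its raw signal above 1000. They also required at least 1 CPE in the untranslated region behind the coding sequence, a step not applied here. With the fold taken here as the mean of both experiments and the signal required on at least 1 array of the enriched antibody, 3 probes of the set passed (Camk2n1, Camk2n2 and Camk2g), against 10.4% of all probes, and with the roles of the antibodies exchanged 6 passed, also against 10.4% of all probes.

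The log2 fold change rose from the 5′-most to the 3′-most tested probe in all 5 genes with several tested probes, in both experiments. Over the 5411 genes on the array with 2 or more tested probes, 59.5% had the higher value at the 3′-most probe in both experiments. The difference between these probes was 1.11 for Camk2a (SD 0.45, n = 2 experiments), 1.13 for Camk2b (SD 0.41), 1.46 for Camk2d (SD 0.36), 2.60 for Camk4 (SD 0.34) and 0.98 for Camkk2 (SD 0.14). Tested as a difference over all 5411 genes with limma, 2 of the 5 passed, Camk2d (adjusted p = 0.0395) and Camk4 (0.023), against 21.6% of these genes. Without the replicate block 4 of the 5 passed, Camk2b (0.039) and Camkk2 (0.0424) being added, against 24.6%. None of the 5 had the higher value at the 5′ probe, which limma called in 3.22% of the 5411 genes. The median difference was 1.13 over the 5 genes and 0.48 over all 5411. Camk2d was no longer called without the second CPEB2 IgG array or without either control array (adjusted p of 0.069, 0.119 and 0.105), nor was Camk4 without the second array of either antibody (0.0513 and 0.0526).

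The probes compared lay 3281 bases apart on the genome for Camk2a, 2961 for Camk2b, 4462 for Camk2d, 256231 for Camk4 and 4209 for Camkk2. The values at the ends of a gene therefore described different stretches of its transcripts, and the paired Camkk2 probes were designed on different RefSeq transcripts. In all 5 genes the 3′-most probe was also the brightest, as in 64.2% of the 5411 genes, so a summary by the brightest probe took the higher value. With the 5′-most probe in its place, 3 of the 10 genes were higher, against 15.8% of all genes tested, and 6 were lower, against 21%: Camk2a was at -1.01 (limma adjusted p = 0.0353 among genes), Camk2d at -1.36 (0.0165) and Camk4 at -2.46 (0.006). Camkk2, at -0.76, was again not called (0.0665).

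**Figure D3:**
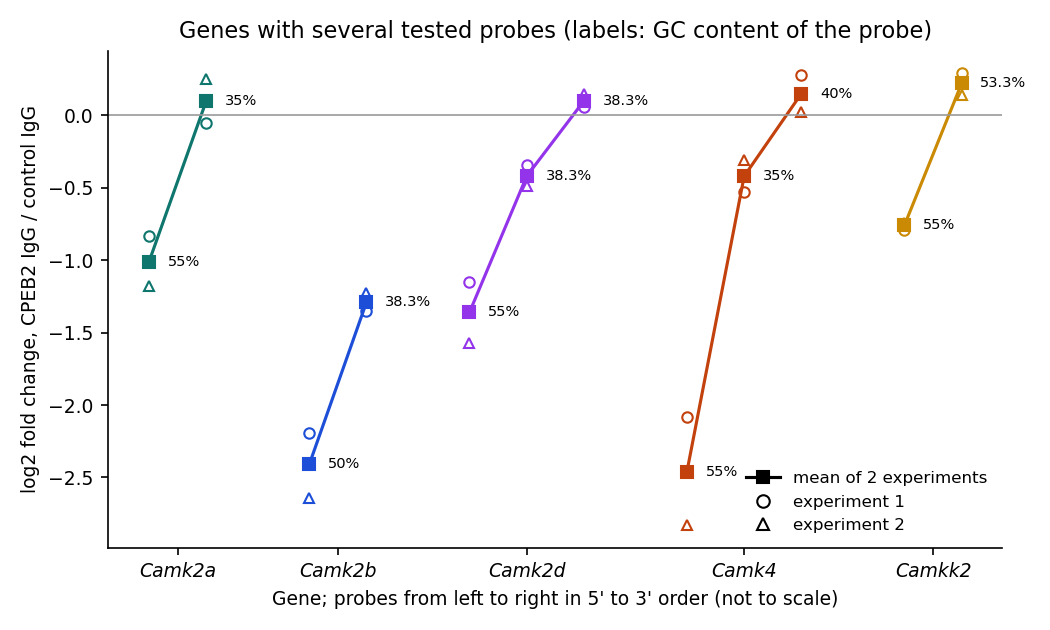
Log2 fold change of CPEB2 IgG over control IgG (vertical axis) at the tested probes of the 5 genes with several of them, from left to right in 5′ to 3′ order and not to scale, with squares for the mean, open circles and triangles for experiments 1 and 2, and the GC content of each probe beside it. Every line rises, by 0.98 for Camkk2 up to 2.60 for Camk4.

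Base composition moved with these values. Over all tested probes the median log2 fold change was 0.37 for probes with up to 35% G and C and -0.59 for those above 60%. The 5′ probes of the 5 genes held 50% to 55% G and C, as in the runs of capitals of the Camk2d and Camkk2 5′ probes shown above, and the 3′ probes 35% to 53.3%. After centring within bins of GC content the difference between the ends was 0.19 for Camk2a, 0.77 for Camk2b, 1.11 for Camk2d, 2.25 for Camk4 and 0.98 for Camkk2, and the Camk2d difference was no longer called (adjusted p = 0.0537). The Camk2g probe (0.84) and the 5′ Camk2d probe (-0.87) were likewise no longer called among probes after this centring, with adjusted p-values of 0.0678 and 0.0602. The Camkk2 probes, with 55% and 53.3%, were nearly equal in composition. Among genes, this centring moved Camk2g from 1.27 to 0.84 and Camkk1 from -1.26 to -1.68, and both were called. The part of base composition in the differences was not tested beyond this centring.

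The letters of the CPE, TTTTAT or TTTTAAT, were searched on both strands of the probes themselves. In the sense of the mRNA they occurred in 1 of the 18 probes, the middle one of Camk4, against 4.54% of 55615 probes, and on the other strand in 2, of Camkk1 and Camk2a, against 6.51%. The letters of the polyadenylation hexamer, AATAAA, which can overlap a CPE, were in the 3′ probes of Camk2a and Camk4 in the sense of the mRNA, against 10.1% of all probes. A probe covers only a small part of a transcript, and these matches are a description of the probe.

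Gapdh, the non-target reference of the study's RT-qPCR, fell in these arrays. Its raw signals were 48250 and 39694 on the CPEB2 IgG arrays, against 253696 and 266689 on the controls, a log2 fold change of -2.52 (SD 0.29, n = 2 experiments, limma adjusted p = 0.00543 among genes). The directions given for the set hold relative to the 75th percentile of the array. The mean of every tested probe was higher than that of Gapdh, so that Camk2b, Camk1 and Camkk1 would turn at their brightest probes on a scale set by Gapdh. The 5′ probe of Camk2b, with a mean of -2.41, lay close to Gapdh in experiment 1 (-2.19 against -2.31) and in experiment 2 (-2.64 against -2.72). The 5′ probe of Camk4, with a mean of -2.46, could not be told from Gapdh, being above it in experiment 1 (-2.08 against -2.31) and below it in experiment 2 (-2.83 against -2.72).

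Other genes of the pathway were taken from lists. Over all genes tested 21.2% were higher and 20.4% lower, with a median log2 fold change of -0.11. By the 5′-most probe 15.8% of all genes were higher and 21% lower. The counts of these short lists are to be read beside these shares, and no set test was run. Of 11 other calcium/calmodulin-dependent kinases, 6 were higher and 4 lower, with a median log2 fold change of 0.89. Dapk1 and Dapk2, death-associated protein kinases, were higher at 2.32 and 1.11, and Mylk, the myosin light chain kinase, at 1.57. Phkg1, a catalytic subunit of phosphorylase kinase, was lower at -2.40, and so were the pseudokinase gene Camkv at -1.53 and Pnck, which encodes the beta form of CaMKI, at -1.44. Without either control array, 2 of the 11 were higher, and with the 5′-most probe 3, where Mylk was at -0.26.

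Of 6 genes for calmodulin and the proteins that buffer it, 4 were lower and none higher by limma, with 1 higher at an unadjusted p under 0.05. Under quantile normalization, median centring and centring by GC content, 1 was higher by limma. The buffers Pcp4, Nrgn (neurogranin) and Gap43 were at -1.5, -0.95 and -0.92. The count of lower genes was 1 under quantile normalization, under median centring and without either control array.

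Among 11 synaptic anchors and substrates of CaMKII, 3 were higher and 2 lower. The postsynaptic scaffold Shank3 was at 2.18, the exchange factors Kalrn and Tiam1 at 1.16 and 0.84, Syn1 (synapsin I) at -1.81 and the actin cross-linker Actn2 at -1.01. By the 5′-most probe none of the list was called higher. Shank3, at -0.90, and Kalrn, at -0.96, were then called lower (limma adjusted p of 0.0482 and 0.0359). Tiam1 stayed at 0.84 with a limma adjusted p of 0.0535. Gria1 and Grin2b, encoding glutamate receptor subunits that CaMKII phosphorylates or docks on, had values of 0.65 and 0.57 and were not called.

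Of 8 nuclear targets of CaM kinase signalling, 3 were higher and 1 lower. Crtc1 and Creb1, a coactivator of CREB and CREB itself, were at 1.33 and 1.31, and the transcription factor genes Mef2d and Mef2c at 0.84 and -1.73. By the 5′-most probe 1 of the 8 was higher, with Mef2d at -0.64 and Creb1, at 0.80, not called (limma adjusted p = 0.081). Of 8 phosphatase genes, the calcineurin subunit genes Ppp3r1, Ppp3ca and Ppp3cb were higher at 1.49, 1.11 and 1.06, and none was lower by limma, with 2 lower at an unadjusted p under 0.05. Under quantile normalization 2 were lower by limma. After centring by GC content Ppp3ca was at 0.69 and not called (limma adjusted p = 0.0812), while Ppp3r1 and Ppp3cb, at 1.07 and 0.91, were called. Without either control array none of the phosphatases was called.

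**Figure D4:**
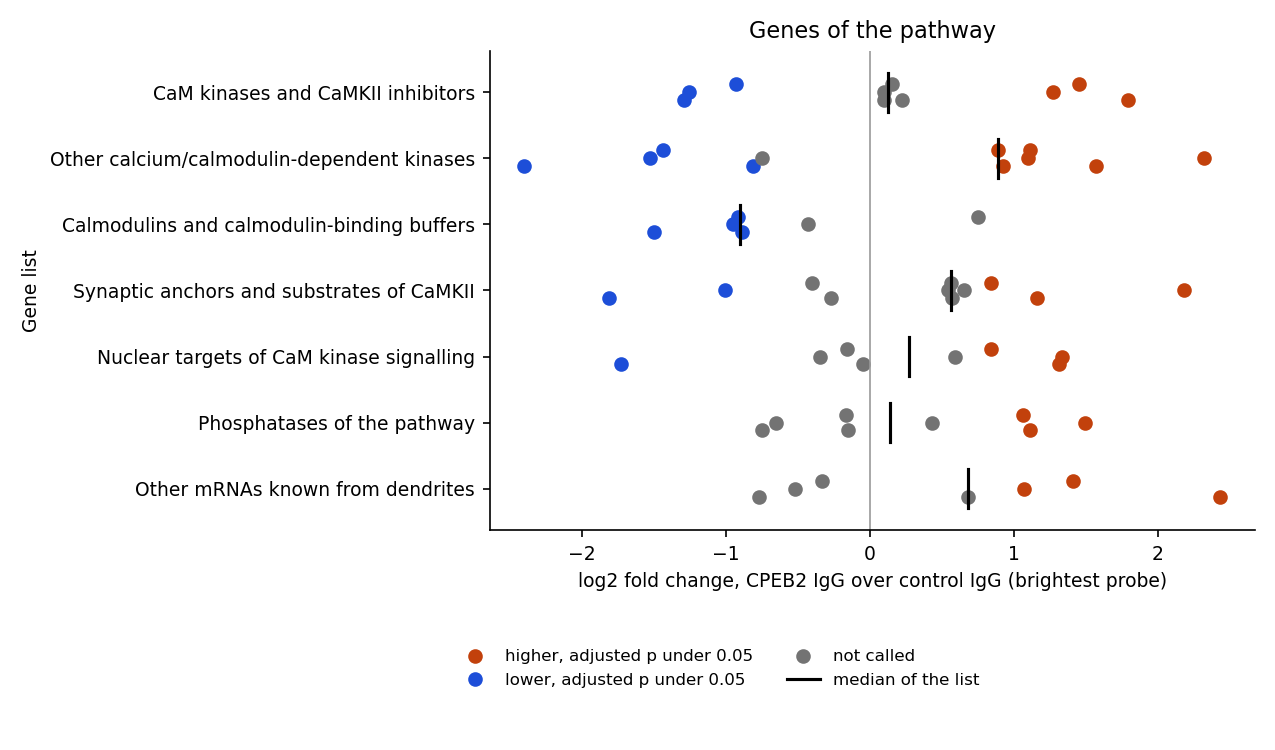
Log2 fold change of CPEB2 IgG over control IgG at the brightest probe (horizontal axis) for the 10 CaM kinase and CaMKII inhibitor genes and for 6 lists of related genes, 1 point a gene, coloured by the limma call at an adjusted p under 0.05, with a black line at the median of each list. Higher and lower genes occur in the CaM kinase set and among the other kinases, while no calmodulin or buffer gene was called higher and no phosphatase or dendritic mRNA lower. Under quantile normalization 1 calmodulin or buffer gene was higher and 2 phosphatases were lower. Over all genes tested 21.2% were higher and 20.4% lower.

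Markers of the cell types of the tissue were recovered with both antibodies. Each lysate was divided between the antibodies, so both arrays of an experiment came from the same cells. The values compare the recovery of an mRNA between antibodies and do not count cells. Over all genes tested 21.2% were higher and 20.4% lower. Of 7 neuronal markers 1 was lower and none higher by limma (1 and 1 at an unadjusted p under 0.05), with summed raw signals of 72687 and 79070 on the CPEB2 IgG arrays, against 93384 and 100918 on the controls. Of 5 astrocyte markers 1 was higher and 3 lower, with Slc1a3 at 3.44 and Aldh1l1 at -3.77, and their sums were 34868 to 38745 against 25320 to 35802. Slc1a3 alone gave 28729 and 26888 of the sums on the CPEB2 IgG arrays, against 3302 and 2133 on the controls. Such a sum of unscaled signals follows its brightest probes and is not a level of the cell type. Of 5 microglial markers 1 was higher and 2 lower, with P2ry12 at 2.30 and Aif1 at -2.64, and sums of 6602 to 7579 against 10388 to 12340. Oligodendrocyte markers had 2 of 5 lower, and endothelial markers 1 of 4, with sums of 55839 to 57993 against 47673 to 63193 and of 3343 to 4609 against 5918 to 7064. In these last lists none was higher by limma, nor at an unadjusted p under 0.05. The marker counts moved with the scaling. Under median centring no oligodendrocyte or endothelial marker and 1 astrocyte marker were lower by limma. Under that centring, and under quantile normalization, 1 neuronal marker was higher. No marker was at 0. Their part in the values of the CaM kinase genes was not tested.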

How the data were processed

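RNA from each precipitate (0.2 µg) was amplified and labelled with Cy3 by the authors using a kit that primes from the poly(A) tail, and hybridised to 1 array a sample. Per the file headers, the deposited intensity values came from Feature Extraction 10.5.1.1, which subtracted background and detrended the signals across the array. Control spots and spots marked as outliers were left out here, repeated spots of a probe were averaged on the log2 scale, and the 75th percentile of its array was subtracted from each log2 intensity. Of 55681 probes, 66 lacked a value on some array. limma 3.58.1 in R 4.3.3 was fitted on all 4 arrays with antibody and experiment as terms, once over probes and once over genes by the brightest probe, with a threshold of 0.05 on the adjusted p and probes well above background on at least 2 arrays.

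Same-numbered arrays were treated as pairs because each lysate was divided between the antibodies. The deviations of arrays of one experiment correlated at 0.206. The block by experiment left 1 residual degree of freedom among arrays. The number of arrays limits the precision, and the study describes the experiments as independent without giving the animals in each. Each antibody had its own positions on the single slide, so position and antibody cannot be told apart. Probes were ordered along a gene by their mm9 positions and strand. The script was tested on simulated data. Alternatives were other scalings, centring within 10 bins of GC content, normexp background correction with an offset of 50, other filters, other probes of a gene, other fits and leaving out arrays. The 10 genes and the lists were chosen with earlier results of these data known. The text names all 10 genes, and from each list up to 3 called genes in each direction, with the same sign in both experiments, together with Gapdh and the 3 genes most like Camk2a and Camk2n1.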

Additional observations from a re-analysis of the deposited data

How the results depend on the processing

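Among genes, Camk2b, Camk2n1 and Camk2n2 kept their direction and their call under every alternative that allowed a test. The 3 probes and 3 genes that were higher and the 5 probes and 3 genes that were lower became 8 lower probes when limma used an intensity trend, also 8 with normexp background correction, and 0 higher and 0 lower probes, 1 lower gene, and Camk2g (1.27), Camkk1 (-1.26) and Camk1 (-0.93) uncalled without a filter on dim probes. Without that filter the lowest adjusted p of a probe in the set was 0.0961. The shares of all features called were not computed with the trend, with normexp or with an array left out. The counts of the set under these settings therefore cannot be set against the array. Camk1 was also uncalled with median centring (-0.71) and with centring by GC content (-0.75). Leaving out one array at a time gave 1 to 3 higher and 2 to 5 lower probes, 2 to 3 higher and 1 to 2 lower genes, and values of -1.11 to -0.76 for Camk1, 1 to 1.53 for Camk2g and -1.52 to -0.99 for Camkk1, some of them uncalled. Those fits had no block, and the lone array was assumed to vary like the other group. Without the replicate block, 3 probes were higher and 6 lower, and 3 genes higher and 3 lower, so the pairing moved none of these counts by over 1.5 times. The count of genes called for the difference between their ends rose from 2 to 4 of 5 without the replicate block.

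Signs turned in the following settings. With the percentile taken over probes detected on all arrays, Camk2a and Camk2d, and their 3′ probes, were at -0.01. With centring by GC content Camk2a was at -0.51, because its 5′ probe was then the brightest, and its 3′ probe at -0.32. With the mean of the probes of a gene, Camk2a was at -0.45, Camk2d at -0.56, Camk4 at -0.91 (adjusted p = 0.037), Camkk2 at -0.27 and Kalrn at -0.14. With the 5′-most probe, chosen after seeing the data, 6 genes were lower, and Camk2a was at -1.01, Camk2d at -1.36, Camk4 at -2.46, Camkk2 at -0.76, Csf1r at 0.17, Mef2d at -0.64, Mylk at -0.26, Map2 at -0.12, Shank3 at -0.90 and Kalrn at -0.96. In these 2 settings another stretch of the gene is measured. The difference between the ends of a gene, also added after seeing the data, was called for Camk2b (1.48) and Camkk2 (1.41) under quantile normalization, for Camk2a (1.09), Camk2b (1.02) and Camkk2 (0.94) with normexp, and for Camk2b (1.13) and Camkk2 (0.98) without the replicate block. Other scalings shifted the median of all genes by 0.13 (quantile), 0.23 (median centring), 0.19 (GC content) and -0.11 (percentile over detected probes), and the values above move with it. Apart from what is given here, the cause of a changed call was not tested.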

Other observations

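Other mRNAs known from dendrites were examined beside Camk2a. Of 7 such genes, 3 were higher with CPEB2 IgG by limma, against 21.2% of all genes tested, and none was lower, against 20.4%. At an unadjusted p under 0.05, 4 were higher and 1 lower. The median log2 fold change was 0.68, and -0.11 over all genes. Map2, a microtubule-associated protein of dendrites, read 22891 and 26055 on the CPEB2 IgG arrays, against 5689 and 3884 on the controls, a log2 fold change of 2.43 (SD 0.48, n = 2 experiments, limma adjusted p = 0.00601). Its 5′-most probe was at -0.12. Psd, an exchange factor for ARF6, and Arc, an immediate early gene of the synapse, were higher at 1.41 and 1.07. Arc was not called when dim probes were left in (adjusted p = 0.0643) or without either control array (0.0757 and 0.0972).

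The genes whose pattern over the 4 arrays was most like that of Camk2n1, by the root mean square difference of mean-centred log2 values, were Cacng7 (0.011), an auxiliary subunit gene of AMPA receptors, Sbno1 (0.015) and Zfp148 (0.020), with log2 fold changes of 1.81, 1.79 and 1.76. Those most like Camk2a at its brightest probe were Pik3cd, Zfp191 and Stx16, with log2 fold changes of 0.10, 0.08 and 0.10. These neighbours changed with the processing: none of the 6 was among the nearest 3 of its gene with normexp background correction, with the mean of the probes or with the 5′-most probe. Quantile normalization kept 1 for Camk2a and 0 for Camk2n1, and centring by GC content 0 and 1.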
